A study of Sus scrofa with 13 samples.

Results

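Platelet-derived growth factors (PDGF) are secreted dimers that drive the growth and migration of mesenchymal cells. The chains PDGFA and PDGFB are cut to their active form inside the cell, whereas PDGFC and PDGFD are secreted latent and released by proteases. The dimers bring together the receptor tyrosine kinases PDGFRA and PDGFRB, which mark fibroblasts, stromal progenitors and the pericytes of small vessels. The family was read here at the level of DNA, as 5-hydroxymethylcytosine (5hmC), a mark made by oxidising methylated cytosine that is often found over the bodies of active genes and at enhancers.

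The genes were taken by symbol, PDGFA, PDGFB, PDGFC, PDGFD, PDGFRA and PDGFRB, from count tables of 27339 genes. Of these 6 symbols 5 had a row, and PDGFB was not analysed here. PDGFC, PDGFRA and PDGFRB passed the filter on low counts. PDGFA and PDGFD did not, and their values come from the same test run without that filter.

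The cells were adipose-derived mesenchymal stem cells of female domestic pigs, cultured from abdominal subcutaneous fat. The pigs had been fed a high-cholesterol diet and had a coil-induced narrowing of a renal artery. The 6 hypoxia libraries were made from cells held at 1% oxygen for 48 hours, and the 6 normoxia libraries from cells held at 20% oxygen. Both groups shared the diet, the stenosis and a culture medium supplemented with platelet lysate, and no library from a healthy pig was compared. The library titles carry the numbers 110, 16, 21, 33, 49 and 4, and each occurs once per group. Their meaning is not stated, so p-values reflect only how these libraries vary, which may be technical variation.

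Antibody-captured 5hmC fragments were sequenced and counted per gene. Between 353379 and 623108 reads per hypoxia library and between 263578 and 714002 per normoxia library fell in genes, which was 2.17 to 2.56% and 1.69 to 2.89% of all reads. Levels are given as CPM, gene reads scaled to a common library total with TMM factors. The number of reads limits each value, and intervals on single libraries cover counting error only. Gene lengths were not used, so levels are not compared between genes. The scaling makes each level relative to the other genes of its library, so a change shared by all genes would not show. A lower level can mean fewer cells with the mark, less of it per cell or more reads captured in other genes. These cannot be told apart. The 8 stromal marker genes, among them THY1, CD44 and NT5E, all passed the count filter, but a DNA mark does not show which cell type a marker is expressed in.

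The comparison of hypoxia with normoxia asked whether hypoxia preconditioning altered 5hmC over the PDGF genes. No member of the family passed the test, in either direction. The 3 genes with more reads had lower mean levels in hypoxia, and the 2 genes with few reads had slightly higher ones, all within the spread between libraries. By edgeR's quasi-likelihood test, 0 of the 3 filtered members and 0 of the 5 members in the unfiltered fit passed at an adjusted p under 0.05. The background was 0.0% of 11868 genes in the filtered fit. With the title number as a block, 4 of 11868 genes passed (0.0337%), none of them a member. Same-numbered libraries deviated together, so blocked log2 fold changes are given beside those of the main fit. They were 0.20 ± 0.469 for PDGFA, -0.15 ± 0.210 for PDGFC, 0.13 ± 0.404 for PDGFD and -0.35 ± 0.262 for PDGFRB (SE). Without the filter, 9 of 25337 genes passed with the block (0.0355%), again with no member among them. At an unadjusted p under 0.05 the members again numbered 0 in the unfiltered edgeR fit, with and without the block, and 0 in DESeq2. Over all 25337 genes of those fits, 694 reached that p in edgeR without the block, 1222 with it and 512 in DESeq2.

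**Figure D1:**
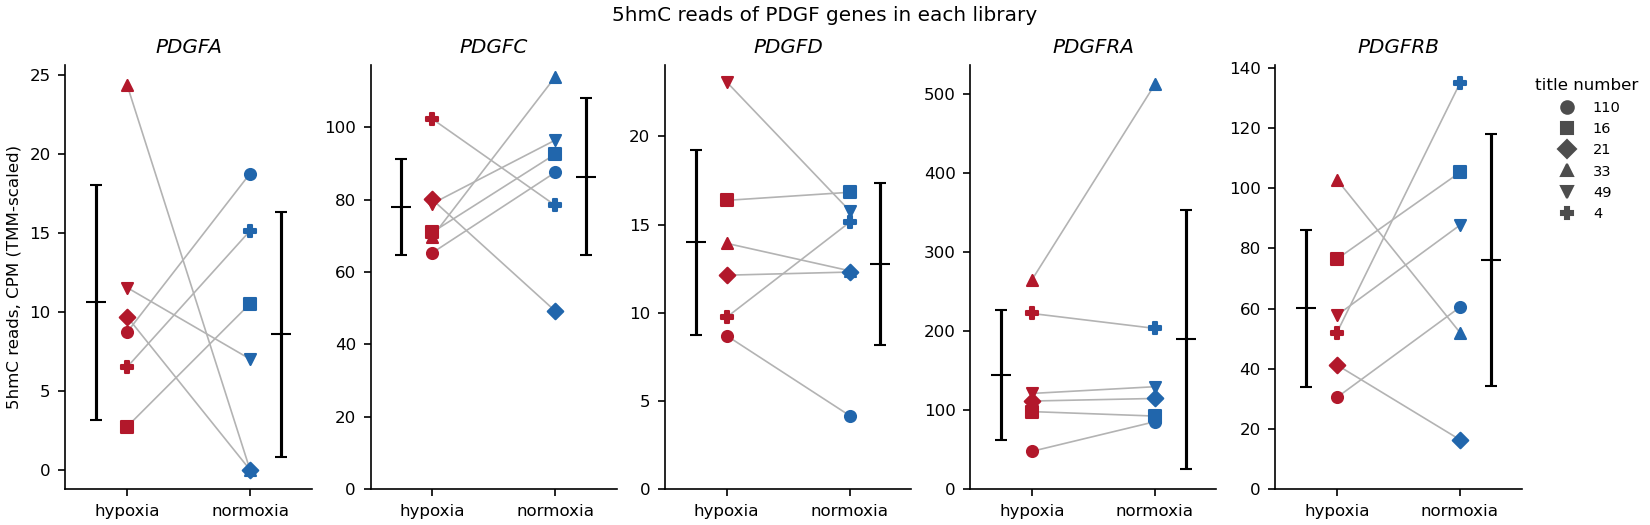
5hmC reads (CPM, vertical axes include 0 and differ in scale) of 5 PDGF genes in the 6 hypoxia libraries (red, left) and 6 normoxia libraries (blue, right). Lines join libraries with the same title number, and black bars give mean ± SD; the groups overlap for each gene, and number 33 is the highest PDGFRA value in both groups.

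PDGFA encodes the chain whose dimer binds PDGFRA. It had 10.6 ± 7.41 CPM in hypoxia and 8.57 ± 7.75 CPM in normoxia (SD, 6 libraries each), on 33 and 29 reads summed over the libraries. In hypoxia its lowest, median and highest values were 2.73, 9.21 and 24.4 CPM, and in normoxia 0, 8.77 and 18.8 CPM. The normoxia libraries of numbers 21 and 33 held 0 PDGFA reads, which allows up to 12.3 and 7.43 CPM at 3 reads. The hypoxia library of number 33 held the most, 14 reads, with a 95% exact (Clopper-Pearson) counting interval of 13.3 to 40.9 CPM. The log2 fold change of hypoxia over normoxia was 0.20 ± 0.533 (SE), with a 95% interval of -0.89 to 1.29 and an edgeR adjusted p of 1.00. Hypoxia was higher in 3 of 6 numbers. Without the normoxia library of number 33 the log2 fold change was -0.02, and without the hypoxia library of that number -0.23, so leaving out either library of number 33 turned its direction.

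PDGFC and PDGFD carry a CUB domain that keeps the secreted dimer latent until a protease removes it. PDGFC, whose dimer binds PDGFRA, had 77.9 ± 13.3 CPM in hypoxia and 86.4 ± 21.6 CPM in normoxia (SD, 6 libraries each). Its values ran from 65.3 over a median of 74.9 to 102 CPM in hypoxia, and from 49.2 over 90.1 to 114 CPM in normoxia. The hypoxia range lay inside the normoxia range. Hypoxia was lower in 4 of 6 numbers (110, 16, 33 and 49) and higher in numbers 21 and 4. The log2 fold change was -0.16 ± 0.229 (SE, 95% interval -0.63 to 0.32, edgeR adjusted p = 1.00), the narrowest interval of the family without the block. A halving or doubling relative to the other genes thus lay outside the interval. A change of the size measured could not be told from none.

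PDGFD, whose dimer binds PDGFRB, had 14.00 ± 5.25 CPM in hypoxia and 12.8 ± 4.60 CPM in normoxia (SD, 6 libraries each), on 41 and 38 reads in all. Its values ran from 8.71 over a median of 13.04 to 23.1 CPM in hypoxia and from 4.17 over 13.8 to 16.8 CPM in normoxia. The log2 fold change was 0.12 ± 0.396 (SE; 95% interval -0.69 to 0.92, edgeR adjusted p = 1.00), with hypoxia higher in 3 of 6 numbers. Leaving out the hypoxia library of number 49 gave -0.09, and leaving out the normoxia library of number 110 gave -0.06.

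PDGFRA encodes the receptor that binds every PDGF chain but PDGFD and is a marker of fat-resident progenitors. In the number order 110, 16, 21, 33, 49 and 4, it had 47.9, 98.3, 112, 265, 121 and 223 CPM in the hypoxia libraries. In the same order the normoxia libraries had 85.5, 92.6, 115, 513, 130 and 204 CPM. The groups overlapped, and number 33 was the highest and number 110 the lowest in both. The means were 144 ± 82.1 CPM in hypoxia and 190 ± 164 CPM in normoxia (SD, 6 libraries each). The log2 fold change was -0.38 ± 0.412 (SE; 95% interval -1.23 to 0.47, edgeR adjusted p = 1.00), with hypoxia lower in 4 of 6 numbers.

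The direction turned when 1 library was left out. Without the normoxia library of number 33, the log2 fold change of PDGFRA was 0.21. In numbers 16, 21, 49 and 4 the hypoxia library differed from its normoxia counterpart by 0.09, -0.05, -0.10 and 0.13 on the log2 scale. In numbers 110 and 33 it was lower by more, at -0.82 and -0.95. With the number as a block, the estimate was -0.29 ± 0.194 (SE; 95% interval -0.68 to 0.11, edgeR adjusted p = 0.820).

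PDGFRB encodes the receptor of the PDGFB and PDGFD dimers, required for pericyte recruitment in mice. In the number order 110, 16, 21, 33, 49 and 4, it had 30.5, 76.4, 41.3, 103, 57.7 and 52.0 CPM in the hypoxia libraries. The normoxia libraries had 60.4, 105, 16.4, 52.0, 87.7 and 135 CPM in that order. Hypoxia was lower in numbers 110, 16, 49 and 4 and higher in numbers 21 and 33, and the groups overlapped. The means were 60.1 ± 26.1 CPM in hypoxia and 76.1 ± 42.0 CPM in normoxia (SD, 6 libraries each), a log2 fold change of -0.39 ± 0.350 (SE; 95% interval -1.11 to 0.34, edgeR adjusted p = 1.00). Numbers 49 and 4 were sequenced in lane 8, going by the file names, and the others in lane 7. Within lane 7 alone the log2 fold change was 0.06, so the lower mean in hypoxia did not hold within that lane. The other members kept their direction in lane 7, with 0.51 for PDGFA, -0.28 for PDGFC, 0.17 for PDGFD and -0.61 for PDGFRA. Within lane 8, with 2 libraries per group and a fit chosen after the data were seen, PDGFRB had a log2 fold change of -0.995, against 0.06 in lane 7. The same fit gave -0.29 for PDGFA, 0.08 for PDGFC, 0.10 for PDGFD and 0.07 for PDGFRA, so only PDGFD kept one direction in both lanes. No member passed edgeR's test in either lane, and the difference between lanes was not tested. Without the normoxia library of number 4 the log2 fold change was -0.14, and without the hypoxia library of number 33 it was -0.64. The normoxia library of number 21 held 4 PDGFRB reads, and without it the log2 fold change was -0.56.

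**Figure D2:**
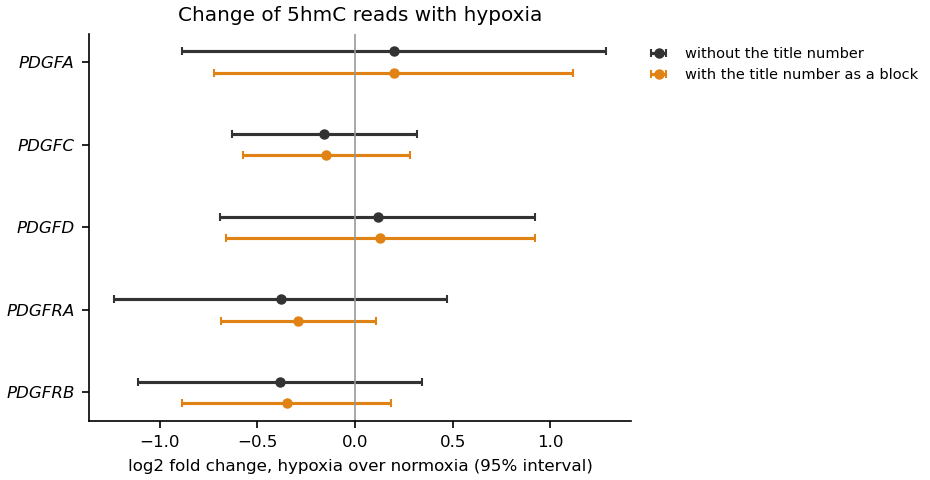
Log2 fold change of 5hmC reads, hypoxia over normoxia (horizontal axis), for 5 PDGF genes, with 95% intervals from edgeR fits without the title number (black) and with it as a block (orange). Each interval includes 0; the block narrows that of PDGFRA most, to -0.68 to 0.11.

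Ratios of members within a library do not depend on the scaling between libraries. The log2 ratio of PDGFRA to PDGFRB reads averaged 1.15 ± 0.613 in hypoxia and 1.23 ± 1.39 in normoxia (SD, 6 libraries each). By an exact two-sided permutation test with 924 arrangements p was 0.909 (Benjamini-Hochberg adjusted p = 0.909 over 2 ratios). With libraries paired by title number, the exact test over 64 arrangements gave p = 0.938. This ratio was higher in hypoxia in 4 of 6 numbers. The normoxia libraries of numbers 21 and 33 had the highest ratios of all, 2.66 and 3.27. That of number 21 rests on 4 PDGFRB reads. The log2 ratio of PDGFC to PDGFD averaged 2.44 ± 0.558 in hypoxia and 2.71 ± 0.785 in normoxia, higher in hypoxia in 2 of 6 numbers. The exact test with 924 arrangements gave p = 0.532 (0.909 when adjusted), and the paired exact test p = 0.5. No unequal change of the receptors, or of the latent ligands, was detected. The PDGFA to PDGFB ratio was not analysed here.

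PDGFRA differed between title numbers. Its mean over both libraries of a number was 389 CPM for number 33 and 66.7 CPM for number 110, 5.83-fold apart. A test of the title number, chosen after the members' counts were seen, called PDGFRA with an edgeR adjusted p of 2.2e-05, rank 28 of 11868 genes. That test called 1514 genes (12.8%), so differences between numbers were common. Of the other 2 filtered members it called 0. PDGFRB had an adjusted p of 0.112 with a 3.24-fold range of number means, and PDGFC an adjusted p of 0.909 with a 1.42-fold range.

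The order of the numbers for PDGFRA was the same in both groups, from lowest to highest 110, 16, 21, 49, 4 and 33. Spearman's rho between the groups over 6 numbers was 1 (two-sided exact permutation p = 0.00278, adjusted p = 0.0167 over the 6 genes compared this way), and Pearson's r of log2 CPM was 0.870 (exact permutation p = 0.0194, adjusted p = 0.117). Without numbers 110 and 33, the farthest from the median of the hypoxia libraries, r was 0.980 over 4 numbers. Such an identical order was found for 79 of 11868 tested genes (0.666%). The median rho over those 11868 genes was 0.371, whereas the permutation test assumes no relation. The order was read from the same counts as the test of the title number, so it is no separate support. For PDGFRB rho was 0.143 (exact permutation p = 0.803, adjusted p = 0.803) and r was 0.260 (exact permutation p = 0.635, adjusted p = 0.635). For PDGFC rho was -0.543 (exact permutation p = 0.297, adjusted p = 0.357) and r -0.380 (exact permutation p = 0.406, adjusted p = 0.487). Without the 2 numbers farthest from the hypoxia median of each gene, r was 0.702 for PDGFRB and -0.729 for PDGFC.

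The call for PDGFRA did not rest on number 33, which had the highest level. Without both of its libraries the adjusted p of the title number was 0.0127, and within lane 7 it was 0.00015. Over these and the other alternatives except lane 8 the adjusted p ranged from 1.2e-07 to 0.0127. Within lane 8, which holds only numbers 49 and 4, it was 0.441. Within number 33 the hypoxia library had a 95% exact counting interval of 224 to 310 CPM and the normoxia library one of 445 to 587 CPM, so the 2 libraries differed by more than counting error.

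**Figure D3:**
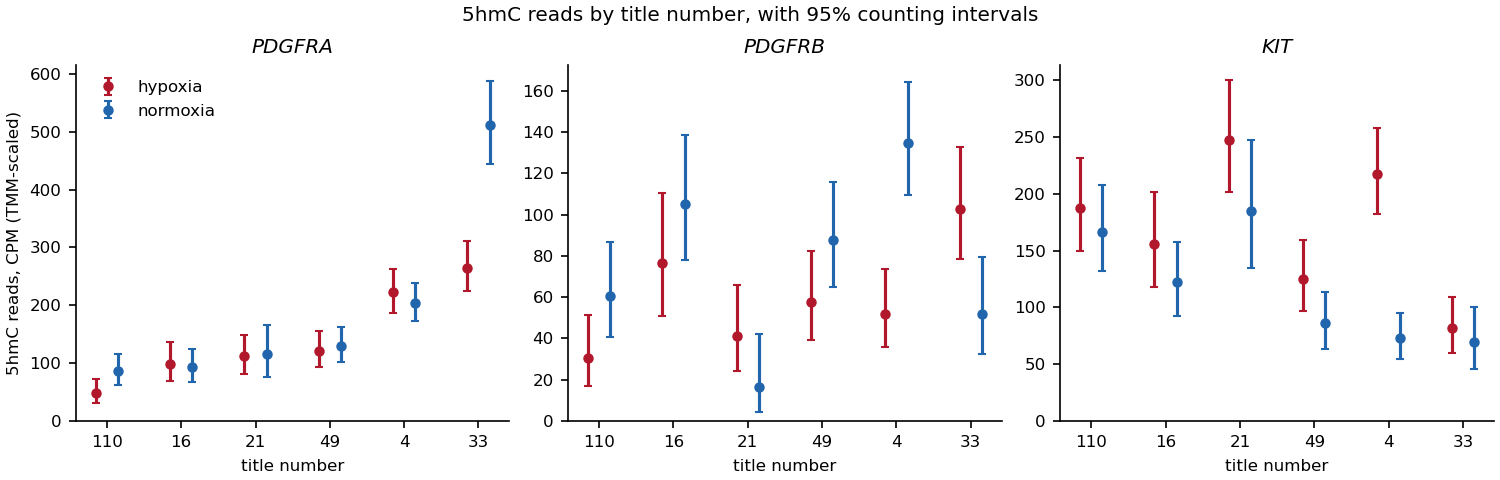
5hmC reads (CPM, vertical axes from 0) of PDGFRA, PDGFRB and the neighbouring receptor gene KIT by title number, hypoxia (red, left) and normoxia (blue, right). Bars are 95% exact counting intervals of single libraries; numbers are ordered by PDGFRA, which keeps 1 order in both groups, while PDGFRB does not and KIT is lowest in number 33.

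The spread of the members' counts was also set against counting error. Within groups the chi-square per degree of freedom was 0.906 for PDGFD, 1.48 for PDGFC and 2.54 for PDGFA, where pure counting error gives values near 1. PDGFRB had 7.29 and PDGFRA 40.9. The median of all tested genes was 2.79. Only 0.211% of tested genes exceeded PDGFRA, while 81.8% exceeded PDGFC. For an equal relative spread this measure rises with the number of reads, 62 for PDGFA, 79 for PDGFD and 998 for PDGFRA. It therefore does not rank how variable these genes are, and the shares of tested genes carry the same limit. PDGFRB and PDGFC, at 432 and 489 reads, were closer in depth.

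The part of other cell types in the PDGFRA result was not tested. The title number called 1 of 6 endothelial, 1 of 3 immune, 1 of 5 smooth muscle and pericyte, and 0 of 2 adipocyte markers tested, 3 of 16 in all, and 2 of 8 stromal markers. Beside 12.8% of all tested genes, counts this small give no result about the markers. The summed level of the 8 smooth muscle and pericyte genes averaged least over the 2 libraries of number 33, where PDGFRA was highest, with 270 CPM in hypoxia and 188 CPM in normoxia. In hypoxia alone number 4 was lower, at 224 CPM. Over all numbers that sum ran from 224 to 456 CPM in hypoxia and from 188 to 488 CPM in normoxia, and no gene of the list was at 0 in every library. ACTA2, encoding smooth muscle actin, was the 1 gene of that list called by title number. Without it the sum was 258 CPM in hypoxia and 166 CPM in normoxia in number 33, against 266 CPM in hypoxia and 273 CPM in normoxia in number 110. The summed stromal markers had 636 CPM in hypoxia and 845 CPM in normoxia in number 33, and 703 and 771 CPM in number 110. Without VCAM1, an adhesion receptor gene called by title number, the stromal sum was 537 CPM in hypoxia and 604 CPM in normoxia in number 33, and 677 and 742 CPM in number 110. Over all numbers the sum of all 8 stromal markers ran from 502 to 703 CPM in hypoxia and from 567 to 858 CPM in normoxia. The summed endothelial markers ran from 435 to 577 CPM in hypoxia and from 330 to 530 CPM in normoxia. The immune markers ran from 259 to 381 CPM in hypoxia and from 263 to 354 CPM in normoxia, and the adipocyte markers from 223 to 420 CPM in hypoxia and from 144 to 293 CPM in normoxia. No marker passed the edgeR test of hypoxia, with or without the block.

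The share of a library's reads that fell in genes moved with PDGFC and PDGFRB. No such relation is given here for genes outside the family, so it is not shown to be particular to these members. Over 12 libraries the share correlated with log2 CPM of PDGFC at Pearson's r = 0.778 (permutation p = 0.00393, adjusted p = 0.0196 over 5 members) and Spearman's rho = 0.664 (permutation p = 0.0218, adjusted p = 0.109). For PDGFRB r was 0.709 (permutation p = 0.0117, adjusted p = 0.0292) and rho 0.469 (permutation p = 0.126, adjusted p = 0.210). These permutations treated the 12 libraries as independent, though same-numbered libraries deviated together, so the p-values can be too small. Both relations rest on the farthest libraries, the normoxia libraries of numbers 21 and 49: without them r was 0.521 (permutation p = 0.122) for PDGFC and 0.365 (permutation p = 0.299) for PDGFRB. Within hypoxia libraries r was 0.389 and 0.296, within normoxia libraries 0.868 and 0.813, and within lane 7 it was 0.804 and 0.722, PDGFC first. In lane 8, with 4 libraries, it was 0.418 and 0.353. The raw p for PDGFA, PDGFD and PDGFRA were 0.233, 0.861 and 0.321 by the same permutation test.

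The genes next to the members were read in the RefSeq order of assembly Sscrofa11.1. These neighbours, chosen after the members' values were seen, were the nearest 2 genes with a row on each side, 20 in all, of which 6 passed the count filter. Of those 6, 0 passed the edgeR test of hypoxia with or without the block, and 1, LOC100522887 near PDGFD, had an unadjusted p under 0.05. KIT, the stem cell factor receptor gene of the same receptor class, is the second gene after PDGFRA. It had 169 ± 60.9 CPM in hypoxia and 117 ± 49.5 CPM in normoxia (SD, 6 libraries each), higher in hypoxia in 6 of 6 numbers, but it did not pass the test (log2 fold change 0.55 ± 0.291, SE, edgeR adjusted p = 1.00). The blocked estimate was 0.56 ± 0.197 (edgeR adjusted p = 0.541). By title number KIT was called (edgeR adjusted p = 0.0274), the only 1 of the 6 tested neighbours, beside 12.8% of all tested genes. Its lowest mean was 75.6 CPM, in number 33, and its highest 216 CPM, in number 21. GSX2, the homeobox gene before PDGFRA, had 33 reads in 12 libraries.

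CSF1R, the macrophage colony-stimulating factor receptor gene beside PDGFRB, had 24 reads in all, 3.604 ± 3.19 CPM in hypoxia and 3.29 ± 3.86 CPM in normoxia (SD, 6 libraries each). It is a marker of macrophages. CDX1, on the other side of PDGFRB, had 1 read in 12 libraries. Beside PDGFC, CTSO, a cathepsin gene, had 91.1 ± 21.0 CPM in hypoxia and 124 ± 53.9 CPM in normoxia and a log2 fold change of -0.41 ± 0.260 (SE, edgeR adjusted p = 1.00). GLRB, a glycine receptor gene on its other side, had 0.15 ± 0.289 (edgeR adjusted p = 1.00). PDGFRL, a gene of a PDGF receptor-like protein without a kinase domain, is no member and had 66.0 ± 22.2 CPM in hypoxia and 79.0 ± 35.0 CPM in normoxia.

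The genes whose log2 CPM followed each filtered member most closely over the 12 libraries were picked from the 3 highest Pearson's r among 11867 genes, so no p is given. For PDGFRA they included LOC102164024 (r = 0.944) and ACSL4, an acyl-CoA synthetase gene (r = 0.935). For PDGFRB they were the kinase gene MKNK2 (r = 0.966), the thyroid hormone receptor gene THRA (r = 0.955) and the adaptor gene GAB3 (r = 0.945). For PDGFC they were the zinc finger gene ZKSCAN1 (r = 0.928), the cathepsin gene CTSB (r = 0.921) and the cyclin gene CCNF (r = 0.912). Spearman's rho for these 8 pairs ran from 0.755 to 0.979. PDGFRB and PDGFC were both lowest in the normoxia library of number 21, which had the fewest gene reads, 263578. The lowest counts of MKNK2 and GAB3 were 1 and 2 reads. Values of r without that library are not given, so its weight in them is not known.

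The wider pathway was read through 5 lists with 81 genes, of which 65 passed the count filter. By edgeR's test, 0 of the 65 passed over all genes with or without the block. At an unadjusted p under 0.05 there was 1 without the block, 6 with it and 1 in DESeq2. With the block that was 9.23% of the list genes, against 7.05% of all tested genes, and without it 1.54% against 2.69%. The title number called 10 of the 65 (15.4%), against 12.8% of all tested genes. All tested genes had a median log2 fold change of -0.04, and each list median below is to be read against it.

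Genes that process or bind the ligands had 5 positive and 5 negative log2 fold changes among 10 tested, with a median of 0.01. A2M, which encodes the protease inhibitor alpha-2-macroglobulin that binds PDGF, had 72.8 ± 11.2 CPM in hypoxia and 56.6 ± 26.7 CPM in normoxia (SD, 6 libraries each), a log2 fold change of 0.39 ± 0.288 (SE, edgeR adjusted p = 1.00). SPARC, a matrix protein gene, had -0.20 ± 0.217. The title number called 2 of the 10 tested genes of the list, beside 12.8% of all tested genes. They were PLAU (edgeR adjusted p = 0.0172), encoding the urokinase that releases PDGFD from latency, and PCSK7 (0.0017), a proprotein convertase gene. Among related receptors, 3 of 3 tested genes had positive values, KIT (above), FLT3 with 0.19 ± 0.351 and KDR, the vascular endothelial growth factor receptor gene, with 0.10 ± 0.366.

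The adaptors and effectors had 12 positive and 20 negative values among 32 tested, with a median of -0.07. FYN, a SRC family kinase gene, had 44.2 ± 10.0 CPM in hypoxia and 62.4 ± 10.7 CPM in normoxia (SD, 6 libraries each), lower in hypoxia in 5 of 6 numbers, with a log2 fold change of -0.47 ± 0.238 (SE, edgeR adjusted p = 1.00). PIK3CA, the catalytic subunit gene of phosphoinositide 3-kinase, had -0.42 ± 0.268. STAT5B, a signal transducer gene, had -0.61 ± 0.440 and was lower in 6 of 6 numbers (blocked edgeR adjusted p = 0.702). STAT5B and PIK3R1, a regulatory subunit gene of the same kinase, were called by title number, with edgeR adjusted p of 0.0025 and 0.0406. AKT1 was at 0 reads in all 12 libraries.

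The negative regulators all had negative values, 11 of 11 tested, with a median of -0.24, beside 6603 negative values among all 11868 tested genes, and none passed the test. With library size as the only scaling, 9 were negative and 2 positive, with a median of -0.19. PTPN1, a phosphatase gene that acts on PDGF receptors, had 103 ± 20.9 CPM in hypoxia and 136 ± 22.8 CPM in normoxia (SD, 6 libraries each), lower in 6 of 6 numbers, with a log2 fold change of -0.39 ± 0.212 (SE, edgeR adjusted p = 1.00, blocked 0.691). SPRY1, a Sprouty gene that restrains RAS signalling, had 43.8 ± 14.7 CPM in hypoxia and 61.0 ± 16.1 CPM in normoxia, lower in 6 of 6 numbers (-0.46 ± 0.281, edgeR adjusted p = 1.00). SPRY4, of the same family, had -0.45 ± 0.369 and was lower in 5 of 6 numbers.

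The title number called 4 of these 11 regulators, beside 12.8% of all tested genes, and counts this small give no result about the list. DUSP6, a phosphatase gene that switches off ERK kinases, had an edgeR adjusted p of 2.8e-05, with 199 CPM in hypoxia and 394 CPM in normoxia in number 33 and 71.8 and 102 CPM in number 110. SPRY4 had an adjusted p of 0.0023, SPRED2 0.0112 and PTPRJ 0.0256. DUSP6 was highest in number 4 in hypoxia, at 218 CPM, and in number 33 in normoxia. SPRY4 was highest in number 33 in both groups, at 192 CPM in hypoxia and 265 CPM in normoxia.

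Early response genes had 5 positive and 4 negative values among 9 tested, with a median of 0.18, and 6 positive and 3 negative values with library size as the only scaling. FOSB, an AP-1 subunit gene, had 117 ± 35.4 CPM in hypoxia and 78.6 ± 27.0 CPM in normoxia (SD, 6 libraries each), higher in 4 of 6 numbers, with a log2 fold change of 0.56 ± 0.259 (SE, edgeR unadjusted p = 0.0414, adjusted p = 1.00). JUNB, of the same complex, had 219 ± 49.2 CPM in hypoxia and 165 ± 55.2 CPM in normoxia, higher in 5 of 6 numbers, with 0.40 ± 0.228 (edgeR adjusted p = 1.00). CCND1, the cyclin D1 gene, was called by title number (edgeR adjusted p = 0.0200). JUN was at 0 reads in all 12 libraries.

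**Figure D4:**
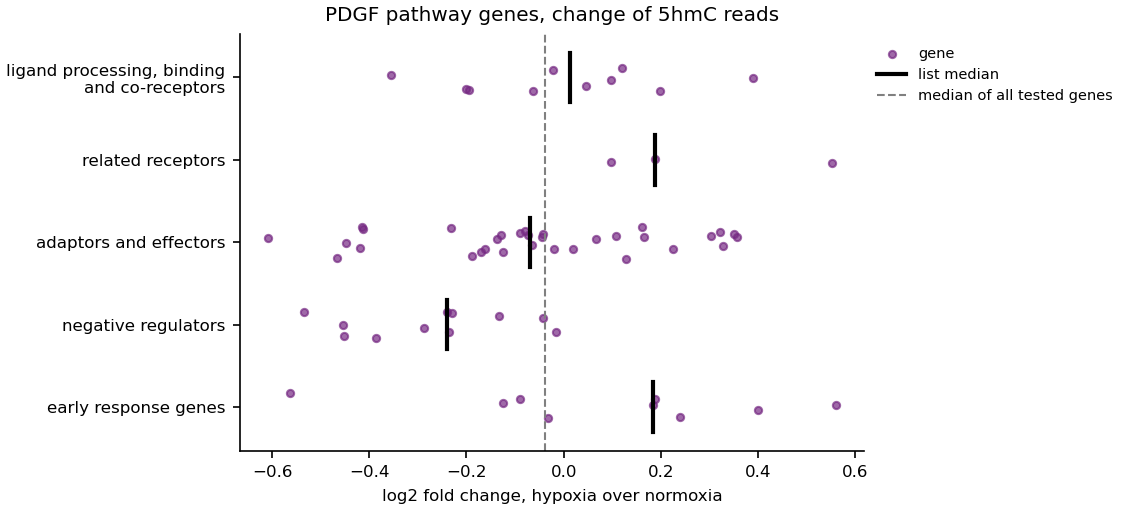
Log2 fold change of 5hmC reads, hypoxia over normoxia (horizontal axis), for the tested genes of 5 PDGF pathway lists (1 point per gene, spread vertically for legibility). Black bars are list medians and the dashed line is the median of all tested genes, -0.04; the 11 negative regulators all lie below 0 (9 of them with library size as the only scaling), and no gene passed the test.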

How the data were processed

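5hmC capture libraries from 12 cultures were analysed, 6 hypoxia and 6 normoxia, grouped by the treatment label; the input library was not analysed here. The authors deposited raw HTSeq read counts per gene symbol for each library. The submitters' processing notes name Bowtie2, Picard, HTSeq, MACS2 and edgeR without settings. No source used here gives the genome build, the annotation or the counted feature, so reads outside the counted feature are not covered, overlapping genes cannot be told apart, and the deposited peaks were not assigned to genes.

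Rows naming no gene (reads outside any feature, 88.0 to 93.0%; low alignment quality, 4.12 to 10.3%; ambiguous, at most 0.00948%; blank, 0 reads) were left out. The gene test was edgeR 4.0.16 under R 4.3.3 (after filterByExpr, minimum count 10 and total 15; TMM; glmQLFit and glmQLFTest), Benjamini-Hochberg adjusted over all genes, threshold 0.05, on 11868 genes (25337 without the filter). CPM were computed here, and SE as the log2 fold change divided by the square root of F. DESeq2 1.42.0 was an alternative. Ratios added 0.5 to each count. Scripts were tested on simulated data. Python 3.11.15 and scipy 1.17.1 were used for permutation tests.

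Same-numbered libraries deviated together (correlations 0.135 to 0.478, all above 0.1), so by the rule used the numbers pair the libraries. All 66 library pairs differed by more than sampling noise (lowest chi-square 1.26 per degree of freedom). Members and lists were chosen with earlier results of these data known. Named were the members, the list genes past a threshold, the 2 with the smallest p per list and fit, and the 3 most like each filtered member (1 of those for PDGFRA is not reported here); neighbours, PDGFRL, ACTA2 and VCAM1 were chosen after their values were seen. Of the table symbols 26838 matched RefSeq (Sscrofa11.1), used for names and gene order.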

Additional observations from a re-analysis of the deposited data

Results flagged for a closer look

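Each group of 6 libraries was checked for a value set far apart from the others, for 5 members and 2 ratios, 14 groups in all. Where values follow a normal distribution, chance flags about 1 in 20 groups. Members were checked as CPM and not as log2 CPM, on which the gaps would differ. The normoxia library of number 33 stood apart for PDGFRA, at 513 CPM, with a gap to the next library of 0.723 of the group's range. The normoxia library of number 110 stood apart for PDGFD, at 4.17 CPM on 2 reads, with a gap of 0.643 of the range.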

How the results depend on the processing

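Over 24 alternatives each for PDGFA and PDGFD and 25 each for PDGFC, PDGFRA and PDGFRB, no member passed the test. Log2 fold changes ran from -0.41 to 0.56 for PDGFA, -0.28 to 0.08 for PDGFC, -0.0912 to 0.29 for PDGFD, -0.66 to 0.21 for PDGFRA and -0.995 to 0.06 for PDGFRB. PDGFRB turned to 0.0618 within lane 7, and PDGFA to -0.292, PDGFC to 0.0784 and PDGFRA to 0.0735 within lane 8. The PDGFRA to PDGFRB log2 ratio difference of -0.08 ran from -0.37 to 0.32 when single libraries were left out, and the PDGFC to PDGFD difference of -0.27 from -0.44 to 0.00988. With the title number as a replicate block 4 genes in all were called, against 0 without it, and 0 to 12 when both libraries of a number or 1 library were left out; the block changed no call of a member or list gene. Calls by title number fell to 822 within lane 7, 238 within lane 8, and to 893 without number 33 and 945 without number 49. Why these moved was not tested. The planned description of peaks in the members was not run, since the build of the peak files is not given. With 62 and 79 reads in 12 libraries, depth limits PDGFA and PDGFD most.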
